A study of Mus musculus with 3 samples.

Results

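The 9 genes described here are core members of the Hedgehog signalling pathway, chosen by symbol from the 27998 genes listed in each matrix: Shh, Ptch1, Hhip, Smo, Boc, Gas1, Gli1, Gli2 and Gli3. Each symbol matched 1 row. Another 31 genes of the same pathway were used for comparison. The levels came from droplet single-cell RNA sequencing of C57BL/6 mouse dorsal skin, with 1 library from neonatal skin, 1 from skin at 3 weeks of age and 1 from skin at 2 months. No other genotype or treatment is named in the labels, the number of animals behind a library is not stated, and the series as a whole concerns IL1 and WNT signalling in dermal adipocyte lineage cells. With 1 library per age, age and library cannot be told apart, so differences between ages have no replicate error and no p-value. Comparisons between cell classes were tested over the 3 libraries.

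Hedgehog signalling starts with a secreted ligand. Without ligand, the receptor Ptch1 holds the membrane protein Smo inactive. Ligand binding to Ptch1, helped by the co-receptors Boc, Gas1 and Cdon, releases Smo, and the transcription factors Gli2 and Gli3 then change from repressing to activating forms, with Gli2 the main activator and Gli3 the main repressor. Gli1, Ptch1 and Hhip are direct targets of the pathway, so their transcripts are widely used as a readout of active signalling. Hhip and Ptch1 bind ligand and so limit its reach. In skin, Shh made by follicle epithelium is known to drive the growth of hair follicles and to act both on epithelial cells and on the dermal papilla, the cluster of fibroblasts at the follicle base.

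After filtering, 7911 neonatal, 8900 3-week and 9332 2-month cells were kept, with medians of 8685, 11142.5 and 8529.5 unique molecular identifiers (UMIs) per cell. Between 23 and 31 barcodes were shared by any pair of libraries, at most 0.392% of the smaller one. Cells were sorted into classes and subtypes by counting markers, and no Hedgehog gene was among the markers. Fibroblasts numbered 6660, 5754 and 4932, and keratinocytes 296, 1436 and 1815. The dermal papilla gate, which needed 4 of 10 markers, held 747 neonatal, 61 3-week and 64 2-month cells, and the dermal sheath gate 616, 296 and 69. Follicle epithelium, the sum of a bulge and outer root sheath gate and a hair matrix and inner layers gate, held 60, 102 and 88 cells. Levels are given as CPM, the count of a gene scaled to the summed UMIs of the cells in a gate, with 95% exact Poisson intervals that cover counting error only. A gene is compared only with itself across gates and ages.

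In GENCODE vM21 on GRCm38, the assembly also called mm10, Ptch1 spans chr13:63508328-63573598 on the minus strand and Hhip spans chr8:79965851-80058006 on the minus strand. Gli1 spans chr10:127329882-127341974 and Gli2 spans chr1:118834132-119053619, both on the minus strand, while Gli3 spans chr13:15463235-15730026 on the plus strand. Shh spans chr5:28456815-28467256, Boc chr16:44485049-44558897 and Gas1 chr13:60174405-60177365, all on the minus strand, and Smo spans chr6:29735503-29761365 on the plus strand.

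Ptch1 and Hhip are the 2 target genes whose levels differed most between the papilla and other fibroblasts among members with a sequence in the promoter table, which held 6 of the 9 members. The 250 bases before each start site are therefore shown, 5′ to 3′ on the gene's strand, from RefSeq on GRCm38.p6. Capitals mark a GC box (GGGCGG or its reverse complement), a common promoter motif. The Ptch1 window is chr13:63565736-63565985, inside longer GENCODE transcripts of the gene and outside their exons, and the Hhip window is chr8:80058009-80058258, with no exon in it.
Ptch1: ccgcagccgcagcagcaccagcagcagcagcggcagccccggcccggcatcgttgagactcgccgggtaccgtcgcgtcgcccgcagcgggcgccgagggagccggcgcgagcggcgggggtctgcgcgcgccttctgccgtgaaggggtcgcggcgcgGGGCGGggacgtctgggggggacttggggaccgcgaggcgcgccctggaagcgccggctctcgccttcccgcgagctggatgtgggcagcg
Hhip: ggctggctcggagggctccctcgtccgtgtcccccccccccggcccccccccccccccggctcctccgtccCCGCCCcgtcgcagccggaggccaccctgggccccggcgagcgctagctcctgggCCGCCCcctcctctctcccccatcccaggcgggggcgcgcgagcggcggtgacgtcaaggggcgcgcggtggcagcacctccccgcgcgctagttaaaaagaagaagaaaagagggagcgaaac
Ptch1 had 1 GC box and Hhip had 2, and 32.7% of the 32851 promoter windows of the same length held at least 1. The GLI motif GACCACCCA, searched on both strands and sharing no site with the GC box, was found in 74 windows, 0.225% of all, and in none of the 6 members' windows. A match or its lack describes only the letters in these windows.

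**Figure D1:**
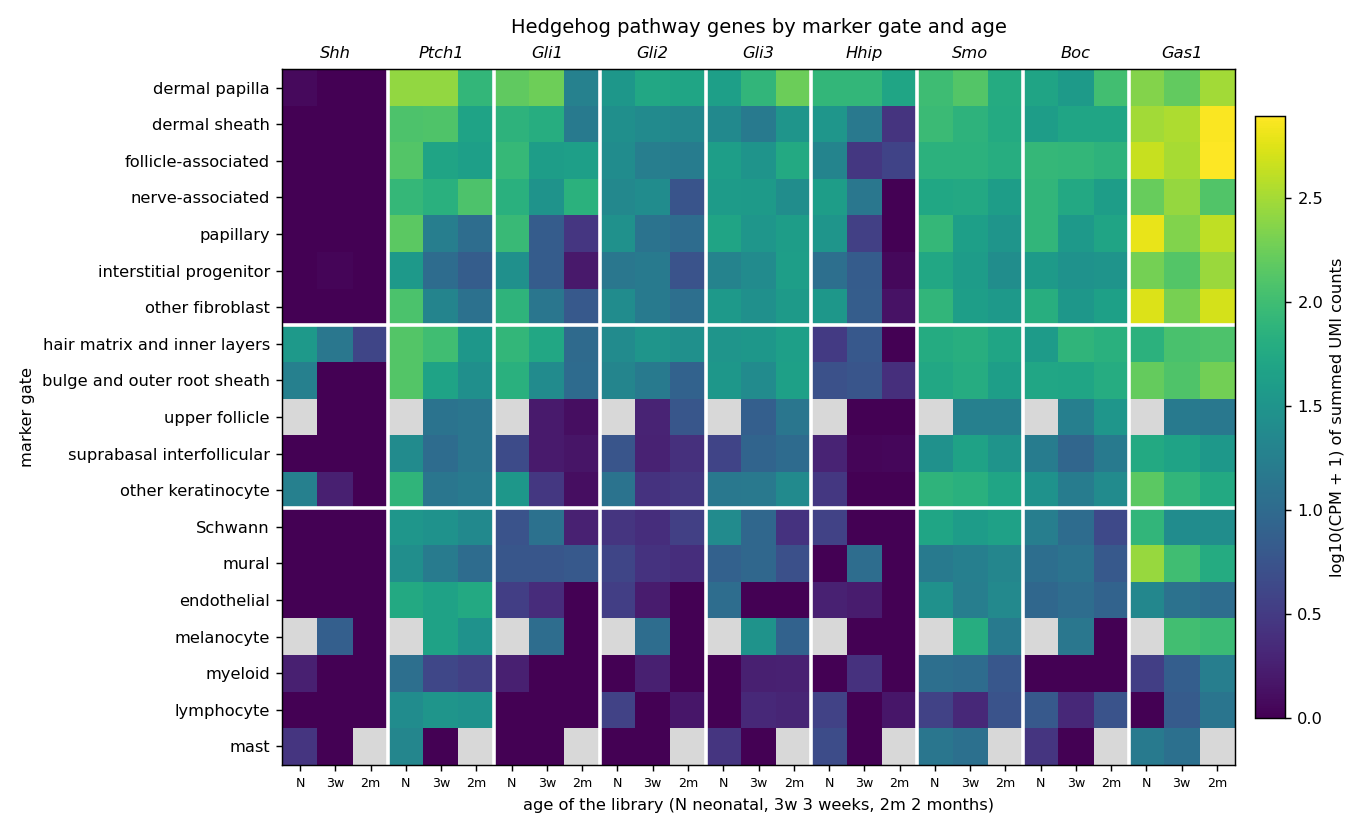
Levels of the 9 members as log10(CPM + 1) in each marker gate (rows) and at each age (N neonatal, 3w 3 weeks, 2m 2 months), with grey where a gate held fewer than 20 cells. Gli1, Ptch1 and Hhip were highest in the papilla gate of the neonatal and 3-week libraries, and 97 of 116 neonatal Shh UMIs lay in the follicle epithelium gates.

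Shh, the ligand, was detected in very few cells, with most of its UMIs in follicle epithelium. The neonatal library held 116 Shh UMIs in 21 cells, the 3-week library 27 in 8 cells and the 2-month library 5 in 4 cells. Follicle epithelium held 97, 17 and 4 of these UMIs, or 83.6%, 63.0% and 80.0%, while making up 0.76%, 1.15% and 0.94% of cells. The number of cells limits these values, since 2 cells held 54 of the 116 neonatal UMIs and 18 of the 27 at 3 weeks. Of the 21 neonatal cells, 15 were gated as keratinocytes and held 106 UMIs. Transcripts of Lhx2, a transcription factor of hair germ and bulge cells, were detected in 18 of the 21, those of Cdh3, the P-cadherin of hair matrix and germ cells, in 17, and those of Gli1 in 12. These are detections at full depth, with median UMIs of 16371 in the 21 cells and 61398 in the 15 keratinocytes. They were not compared with other cells at equal depth, so no joint expression is read from them.

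Within keratinocytes, Shh stood at 31.6, 6.63 and 1.47 CPM in follicle epithelium at the 3 ages, against 1.86, 0.24 and 0 CPM in the other keratinocytes (9, 5 and 0 counts). Follicle epithelium was above the other keratinocytes in all 3 libraries. edgeR's quasi-likelihood test, with library as the block and Benjamini-Hochberg adjustment over 11551 genes, gave a log2 difference of 4.34 ± 0.54 (SE, n = 3 libraries; adjusted p = 0.0169). Within follicle epithelium, a cell that passed both gates was placed in the hair matrix and inner layers gate. How many cells passed both was not counted. The hair matrix and inner layers gate carried 35.9, 12.9 and 3.02 CPM of Shh. The bulge and outer root sheath gate carried 17.2 CPM in the neonatal library, with 0 counts at 3 weeks and 2 months. Median UMIs were 56535, 29570.5 and 37646 in the hair matrix gate and 19882, 13628.5 and 15780 in the bulge gate. Lgr5 and Lhx2, markers of the bulge gate, were higher in the hair matrix gate at 3 weeks and 2 months. The bulge gate's other markers, Cd34, Sox9, Postn, Fgf18, Pdzrn3 and Sostdc1, were lower there at both ages. The parts of depth and of the order of the gates in the Shh values were not tested. Fibroblasts held 2, 2 and 0 Shh counts, and no Shh UMI was found in the dermal papilla gate at 3 weeks or 2 months (0 of 61 and 0 of 64 cells, which allows up to 4.92% and 4.69%).

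The other ligand measured at a clear level, Dhh, was found in another place. Dhh is the ligand that Schwann cells are known to use to direct the sheath around nerves. It stood at 155, 173 and 260.4 CPM in the Schwann gate of the neonatal, 3-week and 2-month libraries. After thinning each cell to 1500 UMIs, 17.8%, 17.5% and 27.8% of Schwann cells had a Dhh UMI, against 0.0604%, 0.0348% and 0.0414% of all fibroblasts. Endothelial cells also held Dhh UMIs, at 10.7, 7.92 and 14.7 CPM. Their thinned shares were 2.56% (1 of 39), 2.22% (2 of 90) and 0% (0 of 39, which allows up to 7.69%). Unthinned, 25.6%, 12.2% and 12.8% of endothelial cells had a Dhh UMI, at median depths of 18506, 14287 and 5374 UMIs, against 46.7%, 34.7% and 45.2% of Schwann cells at 8331, 3152 and 2791.5 UMIs.

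The receptors and target genes were next compared between dermal papilla cells and all other fibroblasts. Ptch1 had 263, 268 and 81.9 CPM in papilla cells of the neonatal, 3-week and 2-month libraries, against 112, 22.8 and 12.9 CPM in other fibroblasts. The papilla was the higher of the pair in each library, and the lowest papilla value, at 2 months, lay below the neonatal value of other fibroblasts. The log2 difference was 2.01 ± 0.42 (SE, n = 3 libraries), and Ptch1 passed the edgeR test (adjusted p = 0.0305 over 14817 genes). Without the 3-week library it did not pass (1.57, adjusted p = 0.201), nor with library left out of the model as a block (1.66, adjusted p = 0.250). Its log2 difference ran between 1.57 and 2.62 over the 11 alternatives tried, with adjusted p-values between 6.05e-05 and 0.250.

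Hhip, the decoy receptor, stood at 80.9, 81.0 and 49.7 CPM in papilla cells, against 31.2, 6.05 and 0.484 CPM in other fibroblasts. The papilla was higher in every library, with log2 ratios of 1.38, 3.74 and 6.68 at the 3 ages. At 2 months the papilla held 128 of the 167 Hhip UMIs of the whole library, or 76.6%, from 0.69% of its cells. The fitted difference, 3.26 ± 0.94 (SE, n = 3 libraries), did not pass the edgeR test (adjusted p = 0.0666).

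Gas1, a membrane-anchored co-receptor, went the other way. It had 226, 156 and 308 CPM in papilla cells, against 484, 192 and 445 CPM in other fibroblasts. The papilla was lower in each of the 3 libraries. The log2 difference was -1.12 ± 0.27 (SE, n = 3 libraries; edgeR adjusted p = 0.0456). This call was lost when any 1 library was left out, with adjusted p-values of 0.0585 without the neonatal, 0.306 without the 3-week and 0.0699 without the 2-month library, and without the block (0.203). Over the 11 alternatives its adjusted p-values ran between 0.00215 and 0.306. Boc, the other co-receptor, had 47.7, 36.9 and 102 CPM in papilla cells, against 60.3, 35.1 and 41.6 CPM in other fibroblasts, and its fitted difference was -0.13 ± 0.34 (adjusted p = 0.829). Smo, which carries the signal across the membrane, had 97.8, 132 and 60.2 CPM in papilla cells, against 77.5, 43.7 and 33.7 CPM in other fibroblasts, a difference of 0.45 ± 0.26 (adjusted p = 0.281).

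Of the 3 Gli factors, none passed the test in the papilla, although each was above the other fibroblasts in 3 of 3 libraries. Gli1 had 155, 179.7 and 17.9 CPM in papilla cells, against 72.1, 13.9 and 6.97 CPM in other fibroblasts (1.57 ± 0.49, edgeR adjusted p = 0.0802). The 2-month papilla was thus near the level of other fibroblasts at 3 weeks. Gli2 had 32.9, 53.3 and 49.7 CPM in papilla cells, against 24.2, 14.9 and 8.81 CPM in other fibroblasts (adjusted p = 0.102). Gli3 had 41.7, 80.3 and 173 CPM in papilla cells, against 32.9, 26.2 and 39.9 CPM in other fibroblasts (adjusted p = 0.128).

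In the papilla comparison as a whole, 8 members were tested, 1 was called higher, 1 lower and 6 neither, and Shh was too low to be tested. Among all genes tested, 4.46% were called higher and 7.79% lower. The members' median log2 difference was 1.0, beside -0.12 over all genes tested. The count of members called higher rested on the tool and on single libraries. DESeq2 called 4, and leaving out the neonatal library gave 5, while leaving out the 3-week library gave 0.

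Depth and mitochondrial share of papilla cells differed between the libraries, and their part in the age differences was not tested. Median UMIs per papilla cell were 4622, 17236 and 40969.5 at the 3 ages, and those of other fibroblasts 9121, 12193 and 10101. Raising the demand from 4 to 5 markers, removing Sox2 and Sox18 from the markers, removing likely doublets, using clusters or allowing at most 5% mitochondrial UMIs left Gli1 at 138 to 172 CPM in the neonatal papilla, 179 to 199.6 CPM at 3 weeks and 14.5 to 18.7 CPM at 2 months. In the neonatal library, 747 papilla cells became 346 at the 5% limit. Neonatal fibroblasts with 3 papilla markers, just outside the gate, had 113 CPM of Gli1 and 188 CPM of Ptch1, and those with 4, just inside, had 149.5 CPM of Gli1 and 242 CPM of Ptch1. At 3 weeks, 28 of the 61 gated cells had 4 markers and carried 59.2 CPM of Lef1, a papilla transcription factor outside the gate's markers. Lef1 over the whole gate was 258, 269 and 409 CPM at the 3 ages.

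The dermal sheath, a contractile cup of fibroblasts around the follicle, gave a split by age that the pooled test did not call. Ptch1 had 122, 126 and 47.3 CPM in sheath cells, against 125, 22.7 and 15.8 CPM in fibroblasts other than sheath, so the neonatal library showed no excess and the other 2 did. Gli1 had 72.7, 63.3 and 14.0 CPM in sheath cells, against 79.5, 14.8 and 7.40 CPM. The fitted differences were 1.09 ± 0.36 for Ptch1 (edgeR adjusted p = 0.109) and 0.76 ± 0.34 for Gli1 (adjusted p = 0.246). Without the neonatal library they were 1.87 and 1.52 and both passed, the 2 members then called higher. Gli3 was the 1 member called, with 22.7, 14.7 and 31.5 CPM in sheath cells, against 34.9, 27.9 and 46.1 CPM in other fibroblasts (-0.90 ± 0.20, adjusted p = 0.0249). Without the 3-week library its adjusted p was 0.215, and without the 2-month library 0.112, within a range of 0.000339 to 0.591 over the 10 alternatives.

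Thus 0 of 8 members tested in the sheath were called higher and 1 lower, beside 2.17% and 4.92% of 14451 genes. At an unadjusted p under 0.05, edgeR gave 2 higher, and DESeq2 with adjustment called 0. The 2-month sheath gate held 69 cells, and its Gli1 level rested on 8 counts. Markers of mural cells, the contractile cells of vessels, were also present in the sheath gate, where 7 of 8 were detected at each age and summed to 103, 1737 and 987 CPM. Their part in the sheath values was not tested.

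Set against keratinocytes, fibroblasts carried more of most members. Gli1 had 78.8, 17.1 and 7.47 CPM in fibroblasts, against 34.2, 5.26 and 1.26 CPM in keratinocytes (log2 difference 2.00 ± 0.36, SE, n = 3 libraries; edgeR adjusted p = 0.0142). Among the members higher in fibroblasts, Hhip showed the widest gap, with 35.2, 7.50 and 2.74 CPM in fibroblasts, against 1.77, 0.603 and 0.115 CPM in keratinocytes (4.30 ± 0.30, adjusted p = 0.00141). Gas1 had 463, 191 and 438 CPM in fibroblasts, against 75.6, 59.6 and 47.4 CPM in keratinocytes (2.73 ± 0.37, adjusted p = 0.00669). For all 3 genes, fibroblasts were above keratinocytes in every library.

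Ptch1, the receptor, differed less, with 125, 27.6 and 16.1 CPM in fibroblasts, against 68.7, 17.7 and 15.1 CPM in keratinocytes (0.76 ± 0.16, adjusted p = 0.0210). Gli2, Gli3 and Boc were also called higher, with log2 differences of 1.73, 1.51 and 1.20. Shh was called lower, at -6.99 ± 0.996 (adjusted p = 0.00758), a fitted value that rests on 2, 2 and 0 counts in fibroblasts. Smo did not pass (0.50 ± 0.20, adjusted p = 0.101), and its log2 ratio was 0.88 in the neonatal library and -0.13 and 0.07 in the others.

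So 7 of 9 members were called higher in fibroblasts and 1 lower, in a comparison where 26.3% of 15352 genes were called higher and 19.8% lower. The members' median was 1.51, beside 0.05 over all genes tested. Without the 3-week library 3 members were called higher, and without the block 4. Fibroblasts held 92.5%, 84.1% and 84.5% of each library's Gli1 UMIs, with 84.2%, 64.7% and 52.8% of its cells. The papilla alone held 14.7%, 17.1% and 9.26% of Gli1 UMIs, with 9.44%, 0.685% and 0.686% of cells.

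Inside the epithelium, the target genes Gli1 and Ptch1 were higher in the gates that held most of the ligand's UMIs, while the target Hhip did not pass the test. Gli1 had 77.6, 39.4 and 9.21 CPM in follicle epithelium, against 6.63, 1.02 and 0.341 CPM in other keratinocytes. Every library showed the gap, and the log2 difference was 4.25 ± 0.40 (SE, n = 3 libraries; edgeR adjusted p = 0.0113). Ptch1 had 129.8, 73.8 and 29.8 CPM in follicle epithelium, against 29.8, 10.8 and 13.3 CPM in other keratinocytes (1.86 ± 0.31, adjusted p = 0.0293). The factors Gli2 and Gli3 were called as well, with differences of 2.83 ± 0.47 and 1.78 ± 0.30 (adjusted p = 0.0293 and 0.0300). Gli2 was at 23.1, 23.0 and 16.9 CPM, against 5.39, 1.11 and 2.73 CPM, and thus varied little between ages in follicle epithelium.

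Boc was the co-receptor called in follicle epithelium, with 40.8, 63.6 and 64.1 CPM there, against 16.4, 11.5 and 23.0 CPM in other keratinocytes (1.59 ± 0.27, adjusted p = 0.0293). Gas1 had 91.6, 119 and 158 CPM, against 65.5, 52.2 and 34.6 CPM, but did not pass (adjusted p = 0.0875). Smo had 57.7, 62.8 and 44.9 CPM, against 33.8, 48.2 and 31.9 CPM (adjusted p = 0.148). Hhip, with 2.61, 5.07 and 0.737 CPM against 1.24, 0.0484 and 0.0426 CPM, rested on 8, 13 and 2 counts in follicle epithelium (adjusted p = 0.118).

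In all, 6 of 9 members were called higher in follicle epithelium and 0 lower, beside 5.45% and 3.77% of 11551 genes. No member was lower at an unadjusted p under 0.05 either, and DESeq2 called 0 lower. Medians were 1.86 for the members and -0.02 for all genes tested. Leaving out the 3-week library left 1 member called higher, Gli1 (adjusted p = 0.0462), and the model without the block called 0. In both of these fits Shh and Hhip were too low to be tested, so 7 members were, and Shh passed in each of the 8 alternatives where it was tested. The adjusted p of Gli1 ran between 6.78e-19, with DESeq2, and 0.150 over the alternatives. Follicle epithelium cells were deeper than the other keratinocytes, with median UMIs of 32711.5, 16859 and 20262, against 16585.5, 11890 and 10699. At an equal depth of 1500 UMIs, a Gli1 UMI was found in 13.3% (8 of 60), 3.92% and 0% (0 of 88, which allows up to 3.41%) of follicle epithelium cells, against 1.70%, 0.150% and 0.117% of other keratinocytes.

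Fibroblast transcripts in these epithelial cells were measured, since fibroblasts carry the same members. The 8 fibroblast markers summed to 736, 1743 and 3611 CPM in the bulge and outer root sheath gate at the 3 ages and to 429, 570.4 and 1795 CPM in the hair matrix gate. They summed to 194, 1074 and 724 CPM in the suprabasal interfollicular keratinocytes, and to 12435, 13389 and 5722 CPM in the papilla. Both follicle gates were thus above the suprabasal cells in the neonatal library and at 2 months, and at 3 weeks only the bulge gate was. At 2 months the bulge gate had 1106 CPM of Dcn, a matrix proteoglycan gene, against 801 CPM in the papilla. Col1a1, a fibrillar collagen gene, was at 166, 831 and 1350 CPM in the bulge gate and at 35.1, 204 and 824 CPM in the hair matrix gate. All 8 markers were detected in both gates, except that Pdgfra, a fibroblast receptor, was at 0 in the hair matrix gate at 3 weeks. The part of these transcripts in the members' values was not tested. Which markers let cells pass the hair matrix and inner layers gate was not counted. In that gate Gata3 stood at 201, 247 and 310 CPM, against 137, 392 and 433 CPM in the suprabasal interfollicular keratinocytes. Hoxc13 was at 41.4, 67.7 and 74.0 CPM in the hair matrix gate. Msx2 stood at 32.9, 54.8 and 49.1 CPM and Dlx3 at 28.3, 31.9 and 43.0 CPM. Of the inner-layer keratins, Krt28 was at 67.2, 13.7 and 2.27 CPM, Krt25 at 4.65, 0 and 0 CPM and Krt73 at 2.53, 0 and 0 CPM. Krt27, at 13.5, 6.08 and 14.3 CPM, and Krt71, at 3.80, 6.84 and 3.78 CPM, did not follow this course. The gate is named by its rule.

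**Figure D2:**
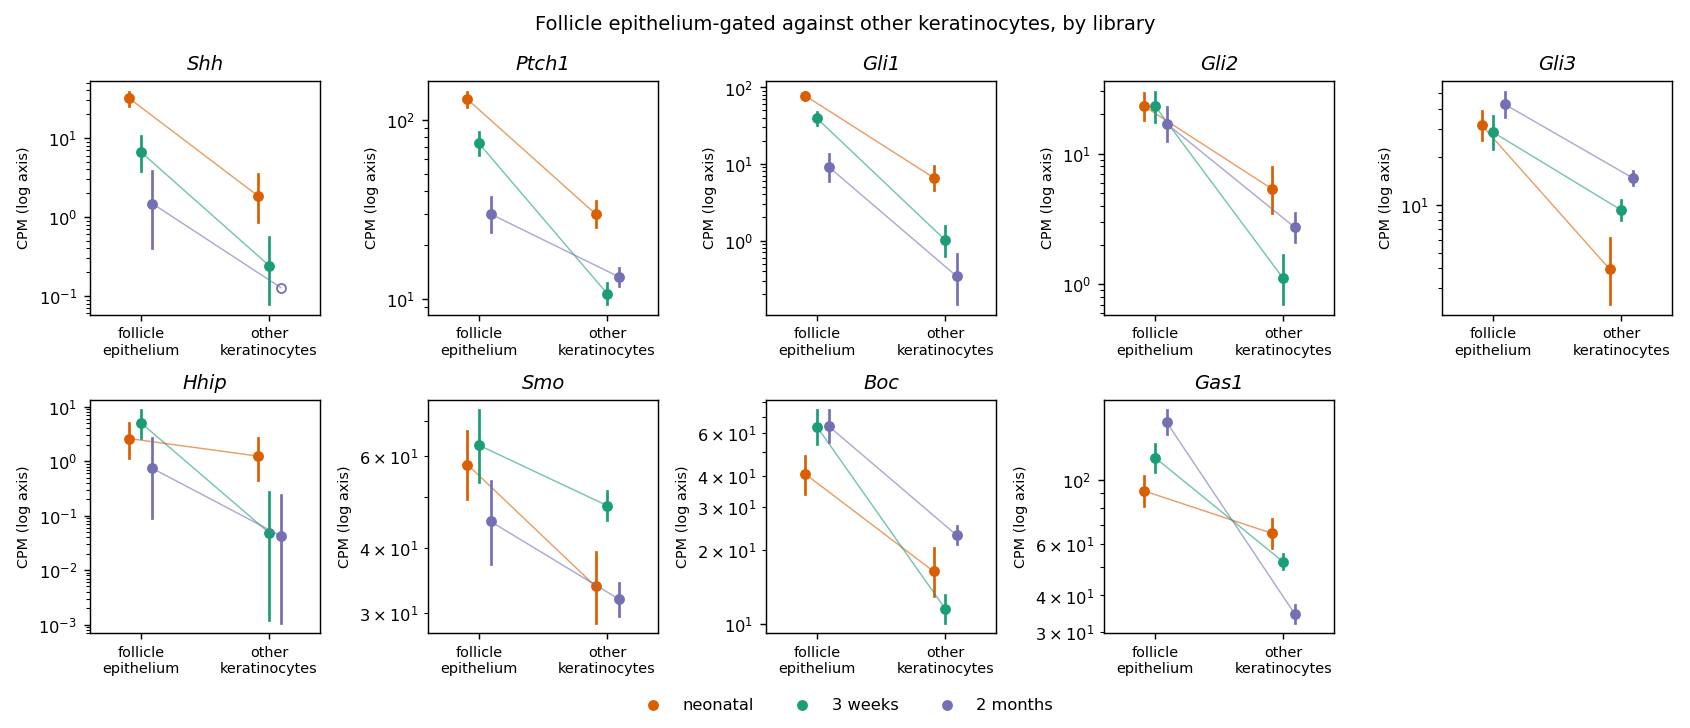
CPM (log axis) in follicle epithelium (left) and in other keratinocytes (right) for each member, with 1 line per library, 95% Poisson intervals and open circles where the count was 0 (drawn at 3 counts). Each member was higher in follicle epithelium in 3 of 3 libraries, with Hhip at 2 months resting on 2 counts against 1. Shh, Gli1, Ptch1, Gli2, Gli3 and Boc passed the edgeR test, and Hhip, Smo and Gas1 did not.

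Across the ages, the target genes of the pathway were lower in later libraries when all fibroblasts were summed. A difference was called where CPM differed at least 2-fold and 1 of the 2 libraries had at least 10 CPM. Ptch1 stood at 125, 27.6 and 16.1 CPM, Gli1 at 78.8, 17.1 and 7.47 CPM and Hhip at 35.2, 7.50 and 2.74 CPM in the neonatal, 3-week and 2-month libraries. On the log2 scale, the 3-week library was below the neonatal one by -2.18 for Ptch1 (95% interval of counting error -2.25 to -2.11), -2.20 for Gli1 (-2.29 to -2.11) and -2.23 for Hhip (-2.37 to -2.10). The 2-month library was below the neonatal one by -2.95, -3.40 and -3.69. The counting intervals do not cover the choice of scaling.

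Gli2 and Smo were also lower in each later library, by less. Gli2 had 24.9, 15.7 and 10.7 CPM and Smo had 79.2, 45.5 and 34.9 CPM, and both were 2-fold lower at 2 months than in the neonatal library (-1.22 and -1.18). Gas1, Gli3 and Boc did not follow this course. Gas1 had 463, 191 and 438 CPM in all fibroblasts, so the 3-week library was the low one, and the log2 ratio of the 2-month to the neonatal library was -0.08. Gli3 had 33.6, 27.3 and 45.9 CPM and Boc had 59.3, 35.2 and 44.3 CPM, and neither differed 2-fold between any pair.

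By count, 4 of 8 measured members were lower and 0 higher at 3 weeks than in the neonatal library, beside 11.0% and 8.2% of 8577 genes. At 2 months against 3 weeks, 1 of 7 was lower (Gli1, -1.20) and 1 higher (Gas1, 1.20), beside 3.21% and 3.41% of 8059 genes. At 2 months against neonatal, 5 of 8 were lower and 0 higher, beside 16.8% and 10.9% of 8721 genes. Median log2 ratios over all genes were -0.20, -0.07 and -0.29 for these 3 pairs. With TMM scaling, which sets the bulk of genes level, 3 rather than 5 members were 2-fold lower at 2 months than in the neonatal library. Of the members' single log2 ratios between ages, 17 fell outside their counting interval with TMM and 6 inside. With the mean CPM per cell, 18 fell outside and 5 inside. With mitochondrial, ribosomal-protein and haemoglobin genes left out of the total, 16 fell outside and 7 inside.

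The papilla did not show the early part of this difference. Ptch1 was at 263 and 268 CPM, Gli1 at 155 and 179.7 CPM and Hhip at 80.9 and 81.0 CPM in neonatal and 3-week papilla cells, and 0 of 8 measured members differed 2-fold in either direction, beside 8.08% of 9113 genes higher and 6.44% lower. At 2 months Gli1 was at 17.9 CPM, and its log2 ratio to the 3-week papilla was -3.33 (-3.82 to -2.87). Ptch1 was at 81.9 CPM, a ratio of -1.71 (-1.96 to -1.46), and Smo was also lower (-1.13). Gli3, the main repressor, and Boc were higher, at 173 and 102 CPM, with ratios of 1.11 and 1.47. Hhip was at 49.7 CPM, less than 2-fold from 3 weeks (-0.70).

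Between 2 months and 3 weeks, 3 of 8 papilla members were thus lower and 2 higher, beside 17.0% and 6.9% of 8982 genes. Against the neonatal papilla, Ptch1 (-1.68) and Gli1 (-3.11) were lower and Gli3 (2.05) and Boc (1.10) higher at 2 months, 2 of 8 each way, beside 20.3% and 12.3% of 9106 genes. Keratinocyte markers in the papilla gate summed to 48.8, 121 and 123 CPM at the 3 ages, and melanocyte markers to 1.92, 2.84 and 1.94 CPM.

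Fibroblast subtypes differed in how far the target genes were lower with age. In papillary fibroblasts, the cells under the epidermis, Gli1 was at 90.4, 6.03 and 1.87 CPM and Ptch1 at 147, 16.4 and 9.96 CPM. In interstitial progenitors Gli1 was at 27.5, 6.03 and 0.591 CPM. Sheath cells held 72.7 and 63.3 CPM of Gli1 in the neonatal and 3-week libraries and 14.0 CPM at 2 months. The papilla and the sheath were thus the fibroblast gates whose Gli1 at 3 weeks stayed within 2-fold of the neonatal value. The follicle-associated and nerve-associated gates, described below, lay little past that cut, with 87 and 25 neonatal cells. The cut was applied to the values alone, whatever their counting intervals.

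Follicle-associated fibroblasts, gated by Coch, Tnmd, Crabp1, Tnn and Spon1, kept a Gli1 level at 2 months that the papilla did not, with 85.2, 39.6 and 42.6 CPM at the 3 ages. Ptch1 in the same gate was at 133, 48.4 and 42.3 CPM. At 2 months this gate held 618 cells and its Gli1 interval, 36.6 to 49.3 CPM, lay above that of the papilla, 13.1 to 23.8 CPM. Its thinned share of cells with a Gli1 UMI was 6.68% (41 of 614, interval 4.83% to 8.95%), against 1.56% (1 of 64, interval 0.0396% to 8.40%) in the papilla, and these intervals overlapped.

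Nerve-associated fibroblasts, gated by Vwa1, Apod, Slc2a1, Itgb4, Cldn1 and Lypd2, had the highest Gli1 of all ranked gates at 2 months. Gli1 stood at 68.6, 29.6 and 69.4 CPM in them and Ptch1 at 82.8, 68.6 and 120.4 CPM. The 2-month interval for Gli1 was 46.9 to 99.1 CPM and overlapped that of the follicle-associated gate. The gate was small, with 25, 69 and 58 cells. Of 8 Schwann markers, 2, 7 and 7 were detected in it, summing to 9.46, 1790 and 3137 CPM, and keratinocyte markers summed to 333, 4751 and 2792 CPM. Dhh was at 0, 7.09 and 20.8 CPM in the gate. The part of these markers in the Gli1 level was not tested. Gli1 in the Schwann gate itself was 4.57, 11.0 and 0.843 CPM.

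**Figure D3:**
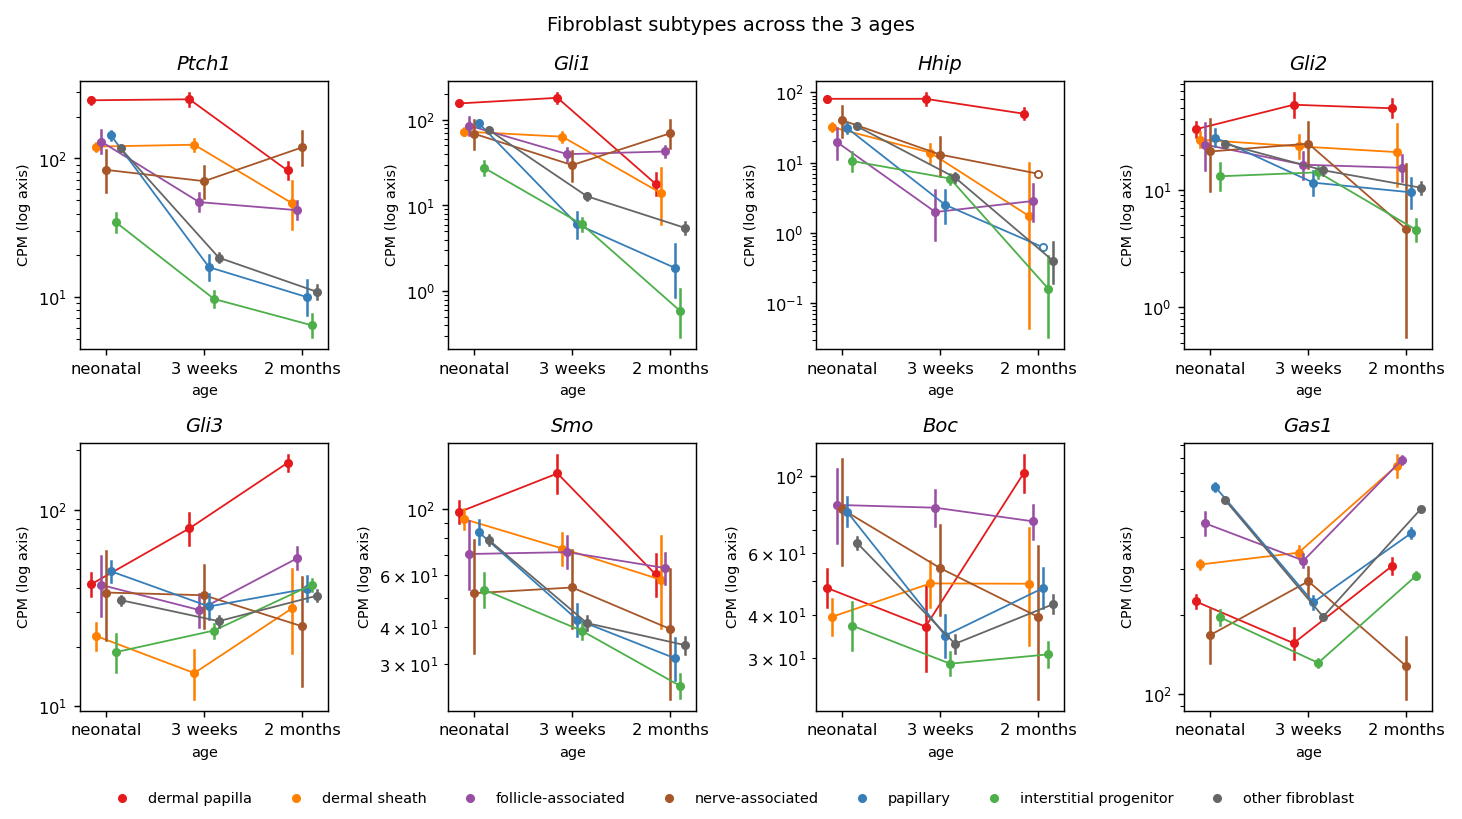
CPM (log axis) of members in fibroblast subtypes at the 3 ages, with 95% Poisson intervals and open circles where the count was 0 (drawn at 3 counts). Gli1 stayed high to 3 weeks in the papilla and sheath, while nerve-associated and follicle-associated fibroblasts were the highest for Gli1 at 2 months. Ptch1 at 3 weeks was within 2-fold of its neonatal level in the papilla and sheath and also in the nerve-associated gate.

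The order of gates can be read for each target gene from its intervals. In the neonatal library the papilla led for Ptch1, Gli1 and Hhip, and its interval did not overlap the next gate, which for both Ptch1 and Gli1 was the papillary gate. At 3 weeks it again led for all 3 without overlap, ahead of the sheath for Ptch1 (126 CPM) and Gli1 (63.3 CPM). At 2 months the nerve-associated gate led for Ptch1 (89.9 to 158 CPM) and its interval overlapped that of the papilla (71.2 to 93.8 CPM). Hhip was again led by the papilla (41.5 to 59.1 CPM), far from the next gate at 2.85 CPM.

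Ptch1 UMIs were also counted where Gli1 was nearly absent. Endothelial cells had 57.0, 45.6 and 56.2 CPM of Ptch1 and 2.48, 1.32 and 0 CPM of Gli1. Lymphocytes had 24.7, 31.2 and 28.6 CPM of Ptch1 and 0 counts of Gli1 at each age. Myeloid cells had 10.6, 3.17 and 2.58 CPM of Ptch1. Endothelial and lymphocyte values of Ptch1 stayed within 2-fold over the 3 libraries. Whether the lymphocyte UMIs come from the cells or from free RNA was not tested.

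Shares of cells with a UMI were compared after thinning each cell to 1500 UMIs. A Gli1 UMI was found in 22.0% (164 of 746), 14.8% (9 of 61) and 1.56% (1 of 64) of papilla cells, against 10.9%, 2.54% and 1.89% of other fibroblasts. In classes that should lack it, the share was 0 of 42, 0 of 242 and 0 of 627 lymphocytes (median UMIs 8511, 2803 and 2484), which allows up to 7.14%, 1.24% and 0.478%. Papilla and other fibroblasts at 2 months could therefore not be told apart by this share, since the papilla interval held the 1.89% of other fibroblasts. Unthinned, 57.8%, 73.8% and 43.8% of papilla cells had a Gli1 UMI.

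For Ptch1 the thinned shares were 32.3%, 27.9% and 10.9% of papilla cells, against 15.3%, 4.05% and 2.75% of other fibroblasts. Lymphocytes gave 9.52%, 5.37% and 5.10% and myeloid cells 1.98%, 1.03% and 0% (0 of 216, which allows up to 1.39%). The 2-month share in other fibroblasts thus lay below that of lymphocytes and above that of myeloid cells. Since the source of the lymphocyte UMIs was not tested, this share is not read as expression or as background. In follicle epithelium, Shh was found in 5% (3 of 60), 0.980% (1 of 102) and 0% (0 of 88) of thinned cells, and in 21.7%, 2.94% and 3.41% of unthinned ones.

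**Figure D4:**
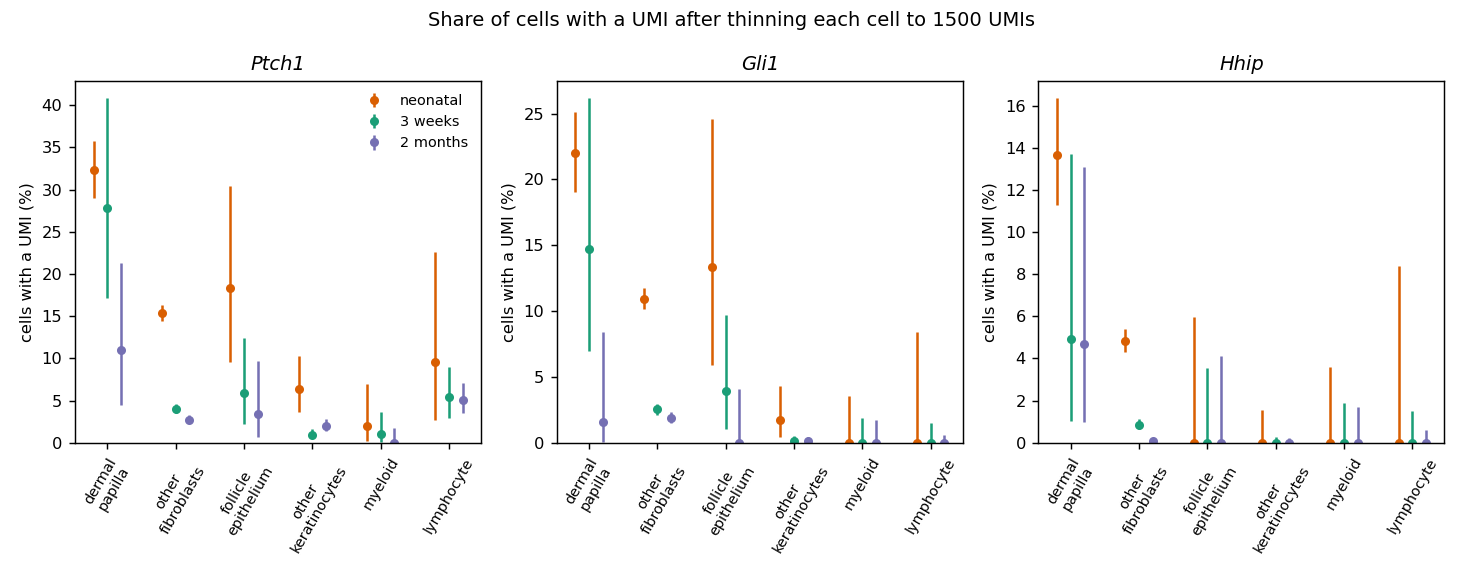
Share of cells with a UMI (%) after thinning each cell to 1500 UMIs, by gate and age, with exact 95% Clopper-Pearson intervals. Shares of papilla cells with Gli1 lay between 1.56% and 22.0%, and myeloid cells and lymphocytes were at 0.

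Gli1 and Ptch1 were not more often found together in neonatal papilla cells. A Ptch1 UMI was present in 29.3% (48 of 164) of thinned papilla cells with Gli1 and in 33.2% (193 of 582) of those without, with overlapping intervals of 22.4% to 36.9% and 29.3% to 37.2%. In other neonatal fibroblasts the shares were 21.9% of cells with Gli1 and 14.5% of cells without. At 3 weeks they were 44.4% (4 of 9) and 25.0% (13 of 52) in papilla cells, with overlapping intervals. In other fibroblasts of that age they were 6.25% (9 of 144) and 3.99%. At 2 months the shares in other fibroblasts were 16.7% (15 of 90) and 2.48%, and the papilla held 1 thinned cell with Gli1. Cells of 1 library are not replicates, so no test was made.

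Cycling cells were those with at least 3 of 6 proliferation markers at 1 or more UMI. They had higher levels of Gli1 and Ptch1 in follicle epithelium and in fibroblasts of the first 2 ages. The marker rule is not scaled to depth, so deeper cells pass it more easily, and the part of depth was not tested. In the neonatal library Gli1 was at 86.8 CPM in cycling and 39.0 CPM in other follicle epithelium cells, Ptch1 at 143 and 73.0 CPM, and Shh at 36.7 and 10.2 CPM (91 and 6 counts). At 3 weeks Gli1 was at 63.2 and 13.8 CPM and Ptch1 at 117 and 27.5 CPM. Shh at 3 weeks rested on 16 counts in cycling and 1 in other cells, in a library where 1 keratinocyte held 14 of the 22 keratinocyte Shh UMIs. In the neonatal library 2 keratinocytes held 54 of the 106 keratinocyte Shh UMIs. No difference in Shh is therefore read at either age. Hhip had few counts, 6 in cycling and 2 in other neonatal cells (2.42 and 3.39 CPM) and 10 and 3 at 3 weeks (7.53 and 2.43 CPM). At 2 months 12 cells cycled and had 3.36 CPM of Gli1, 2 counts, against 10.9 CPM in the rest. In neonatal fibroblasts the values were closer, with Gli1 at 98.6 CPM in cycling and 76.5 CPM in other cells. Ptch1 in them was at 157 and 121 CPM. Fibroblasts at 3 weeks had Gli1 at 28.2 CPM in cycling and 16.2 CPM in other cells, and Ptch1 at 61.5 and 24.9 CPM. The 17 cycling fibroblasts at 2 months held 3 counts of Gli1 and 7 of Ptch1.

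Of the other 31 pathway genes, 29 were tested in the papilla, where 3 were called higher and 3 lower, beside 4.46% and 7.79% of all genes tested. The count lower, at 3 of 29, is close to that share. Scube1 and Scube3, secreted proteins that help release Hedgehog ligand, had log2 differences of 6.45 ± 0.60 and 5.86 ± 0.42 (edgeR adjusted p = 0.00694 and 0.00491). Scube3 had 78.0, 156 and 46.6 CPM in papilla cells, against 1.92, 0.942 and 0.577 CPM in other fibroblasts. Bcl2, a survival factor and known Gli target, had 232, 559.6 and 770.4 CPM in papilla cells, against 69.1, 28.7 and 27.5 CPM (3.18 ± 0.62, adjusted p = 0.0257). Cdon, the third co-receptor, was called lower, with 10.4, 9.23 and 3.88 CPM in papilla cells, against 32.7, 65.2 and 48.5 CPM (-3.06 ± 0.43, adjusted p = 0.0106). Gpc3, a glypican that binds ligand, and Disp1, which exports ligand from producing cells, were also lower (-1.69 and -1.40). The list's median was 0.21, beside -0.12 over all genes tested.

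In follicle epithelium, 4 of 22 tested genes of the list were called higher, beside 5.45% of all genes. Mycn, Bcl2 and Ccnd1, targets tied to growth and survival, were among them (log2 differences 2.18, 1.71 and 1.19), and 0 were called lower, beside 3.77%, with 2 lower at an unadjusted p under 0.05. In the sheath, 0 of 27 were called higher and 3 lower, beside 2.17% and 4.92% of all genes. The 3 were Scube1 (-4.44), Disp1 (-1.46) and Cdon (-1.09), and 2 genes were higher at an unadjusted p under 0.05. The fibroblasts set against the sheath include the papilla, where Scube1 stood at 39.2, 88.1 and 43.1 CPM. The part of papilla cells in the sheath difference of Scube1 was not tested. Between fibroblasts and keratinocytes, 11 of 28 were called higher and 1 lower, beside 26.3% and 19.8% of all genes.

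With age, 5 of 18 measured genes of this list were lower and 2 higher in all fibroblasts at 3 weeks against neonatal, beside 11.0% and 8.2% of all genes. In the papilla at 2 months against 3 weeks, 7 of 18 were lower and 0 higher, beside 17.0% and 6.9%. Gpc3 was among the lower ones in both, with 847, 258 and 114 CPM in all fibroblasts. Cdon was higher at 3 weeks in all fibroblasts, with 64.1 CPM against 30.8 CPM in the neonatal library.

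The genes whose levels followed Gli1 most closely were found by Pearson correlation of log2(CPM + 1) over 57 summed profiles of gate and library, among 13919 genes. Among the 8 closest were Gli2 (r = 0.85), Zfp575 (0.84), Fzd2 (0.84), Trabd2b (0.84), H2afy2 (0.83), Kcns3 (0.80) and Efna2 (0.79). Among members, Ptch1 ranked 10 (0.78), Hhip 32, Boc 34, Smo 38, Gli3 71, Gas1 112 and Shh 3789 (0.27). The profiles share libraries and differ in depth, so these are descriptions with no test.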

How the data were processed

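Skin was digested with collagenase D and DNase1, and libraries were made with a droplet kit for 3′ ends and sequenced on a NovaSeq instrument, per the labels' protocols. Each deposited matrix holds raw UMI counts, whole numbers that the authors did not normalize. Cell Ranger 3.0.2, Seurat 2.0 and mm10 are named in the submitters' processing notes; how the authors chose barcodes is not given in the sources used here. Deposited barcodes numbered 8452, 10226 and 10190, with 84086755, 113874172 and 98432611 UMIs.

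Barcodes with at least 300 genes, 500 UMIs and at most 10% mitochondrial UMIs were kept. A cell joined the class with the highest share of markers at 1 or more UMI per 10000 UMIs, with at least 3 markers and a lead of 20%. Other cells were mixed (200, 577 and 592 barcodes) or ungated (196, 164 and 359). Subtype markers were counted at 1 or more UMI whatever the depth of the cell, so deeper cells pass these gates more easily. Papilla and follicle epithelium gates needed 4 markers and took precedence over the other subtypes. A cell that passed both follicle epithelium gates was placed in the hair matrix and inner layers gate. Other subtypes needed 3 markers and 40% of the list. The markers Trdc and Krt85 were not found. The members and lists were chosen with earlier results of these data known, and the scoring rule was set after marker and member levels had been seen. The members are named throughout, other pathway genes where called, and genes among the 8 closest to Gli1 by correlation; 1 gene that this rule names is not reported here.

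Doublets were kept in the main results. Scrublet (scanpy 1.11.5) marked 2, 238 and 362 barcodes by its own threshold, so it had not worked in the neonatal library, and an alternative removed the 6% with the highest scores. Counts were summed per gate and library and tested with edgeR 4.0.16 in R 4.3.3 (glmQLFit and glmQLFTest, TMM, filterByExpr), with library as a block since both classes of a pair come from the same library, and Benjamini-Hochberg adjustment at 0.05. p-values measure the spread between 3 libraries of different ages. The script was tested on simulated counts. Alternatives were DESeq2 1.42.0, its size factors, no filter, no block, each library left out, stricter gates, Leiden clusters (leidenalg 0.10.2) made without the members, and, for ages, other scalings. Shares used cells thinned to 1500 UMIs. A count of 0 was given a limit of 3 counts.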

Additional observations from a re-analysis of the deposited data

Results flagged for a closer look

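Some ratios between gates changed sign from library to library, with counting intervals as the only error, and the differences between ages were not tested. The log2 ratio of Boc between the dermal papilla and other fibroblasts was -0.34 in the neonatal library, 0.072 at 3 weeks and 1.30 at 2 months. For Boc between the dermal sheath and other fibroblasts it was -0.65, 0.51 and 0.15, and for Gas1 in the same comparison -0.62, 0.92 and 0.78. The ratio of Smo between all fibroblasts and all keratinocytes was 0.88, -0.13 and 0.067.

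Members were also found in barcodes that joined no class. Ptch1 stood at 23.6 CPM in mixed and 27.4 CPM in ungated barcodes at 2 months, above its level of 16.1 CPM in all fibroblasts of that library. Hhip stood at 51.3 CPM in ungated neonatal barcodes, above 35.2 CPM in all neonatal fibroblasts. Which cells these barcodes held was not tested.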

How the results depend on the processing

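No called result reversed its direction under the alternatives run. Counts of members called depended most on the replicate block and on single libraries. Without the block, members called higher and lower were 0 and 0 in the papilla, 0 lower in the sheath, 4 and 0 in fibroblasts against keratinocytes, and 0 higher in follicle epithelium, where Shh and Hhip were not tested. Shh in fibroblasts against keratinocytes was not tested without the block, the neonatal or the 3-week library, where 0 members were called lower. With each library left out in turn, they ran between 0 and 5 higher and 0 and 0 lower in the papilla, 0 and 2 higher and 0 and 1 lower in the sheath, 3 and 7 higher and 0 and 1 lower in fibroblasts, and 1 and 7 higher in follicle epithelium. In the papilla, DESeq2 called 4 higher, no filter 2, Leiden clusters 3, 1 more marker 2 and a gate without Sox2 and Sox18 gave 2, while DESeq2 size factors called 0 lower. Sheath calls lower were 0 without the highest Scrublet scores and 0 with Leiden clusters. The cause of these changes was not tested.

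Between ages in all fibroblasts, the mean CPM per cell gave 0 lower in place of 1 at 2 months against 3 weeks, and TMM gave 3 lower in place of 5 at 2 months against neonatal. In the papilla, 1 member in place of 0 was higher at 3 weeks against neonatal without the highest Scrublet scores, with Leiden clusters, at most 5% mitochondrial UMIs or no Sox2 and Sox18, and 1 in place of 2 at 2 months against neonatal with Leiden clusters. Unthinned shares of papilla cells were 74.7%, 82.0% and 95.3% for Ptch1 and 57.8%, 73.8% and 43.8% for Gli1; at 3000 UMIs they were 54.7% (Ptch1, neonatal), 38.0% (Gli1, neonatal) and 38.3% (Gli1, 3 weeks), which follows from the depth kept. Depth limits Shh most, with 27 UMIs at 3 weeks and 5 at 2 months.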
